A study of Mus musculus with 9 samples.

Results

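RNA-seq was analysed for Gabpa and 9 related genes in primary mouse microglia, the immune cells of the brain, in which Chd8 or Tsc2 was knocked down. The 10 genes are 8 ETS transcription factor genes (Gabpa, Spi1, Elf1, Elf4, Elk3, Elk4, Ets2, and Fli1) and the 2 genes for the GABPA partners, Gabpb1 and Gabpb2. They were chosen by name, with Gabpa selected on its higher counts after Chd8 siRNA in these same libraries, so Gabpa in the Chd8 siRNA libraries is given as a description with no test. All 10 were among the 16229 genes that passed the filter on low counts, of 54119 genes in the table. Each gene value is the sum over its annotated transcripts.

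The cultures came from whole brains of C57BL/6J mice at E18, and microglia were shaken off mixed glial cells. All cells were transfected with a small interfering RNA (siRNA), which directs the cell to degrade mRNA of matching sequence, and RNA was taken after 3 days. There were 3 groups, control siRNA, Chd8 siRNA, and Tsc2 siRNA, with 3 libraries in each, numbered 1 to 3. Replicates came from the brains of different mice, but the sources do not say whether libraries with one number shared a culture. The text of the study names lipopolysaccharide, a bacterial product that activates microglia, for the RNA-seq cultures, and its methods do not count RNA-seq among the experiments done without it. The methods paragraph on RNA-seq and the sample descriptions do not mention it, and if given it was shared by all 3 groups. Total estimated counts ranged from 16913005 to 33213477 per library.

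The targeted genes were examined first. Levels are given as normalized CPM, that is counts divided by library sizes scaled with TMM. Chd8, which encodes a chromatin remodeler, measured 118, 97.5, and 93.6 CPM in control siRNA libraries 1 to 3, 86.8, 44.6, and 38.2 CPM in the Chd8 siRNA libraries, and 119, 89.9, and 101 CPM in the Tsc2 siRNA libraries. All 3 Chd8 siRNA libraries were below all controls, and Chd8 siRNA library 1 kept the most Chd8. The log2 fold change was −0.93 (SE 0.14) in edgeR's quasi-likelihood test with a term for the replicate number (the replicate block), where the adjusted p was 0.00781. Tsc2, a negative regulator of mTOR signaling, measured 40.8, 39.9, and 38.9 CPM in the controls and 24.6, 30.6, and 36.4 CPM in the Tsc2 siRNA libraries. These 3 were below all controls, but the log2 fold change of −0.39 (SE 0.12) did not pass the test with the block (edgeR adjusted p = 0.219). Tsc2 siRNA library 3 kept the most Tsc2, at 0.94 of the control of its number, against 0.60 for number 1 and 0.77 for number 2.

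Microglial markers were high in each library. The 10 microglial markers summed to between 1654 and 2398 CPM, and none of them was at or under 3 counts in all libraries. Endothelial markers, of which Cldn5 was at or under 3 counts in each library, summed to between 158 and 235 CPM over 5 genes. Astrocyte markers summed to between 11.0 and 13.8 CPM in the libraries numbered 1, between 22.4 and 26.8 CPM in those numbered 2, and between 45.8 and 102 CPM in those numbered 3. Fibroblast and pericyte markers ranged from 7.47 to 63.3 CPM and were also lowest in the libraries numbered 1. These sums were also lower with Chd8 siRNA in some numbers. For fibroblasts and pericytes they were 10.07, 29.99, and 63.3 CPM in the controls and 10.05, 14.7, and 26.8 CPM with Chd8 siRNA, and for astrocytes 13.8, 22.4, and 102 CPM against 12.6, 23.2, and 45.8 CPM. The endothelial sums were 183 to 235 CPM in the controls and 158 to 173 CPM with Chd8 siRNA, which was mostly Flt1 (136 to 186 against 97.1 to 127 CPM). With the block, Flt1 had a log2 fold change of −0.46 (SE 0.08, edgeR adjusted p = 0.0169) at a size under 1.5-fold. Of the other endothelial markers tested, Pecam1 was at −0.19, Kdr at 0.16, and Cdh5 at 0.76, and none of these passed (edgeR adjusted p = 0.773, 0.599, and 0.369). Col1a1, a collagen gene of fibroblasts, was called lower with Chd8 siRNA in the fit with the block (log2 fold change −1.31, SE 0.25, edgeR adjusted p = 0.0216), and it was the only marker of 3 tested on its list to be called. Of the 6 astrocyte markers tested, 0 were called and 4 had negative log2 fold changes, from −1.51 for Aqp4 and −1.24 for Gfap to −0.0058 for Aldh1l1, with 0.09 for Slc1a2 and 0.03 for Slc1a3. The part of these cells in the results that follow was not tested.

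ETS factors share a DNA-binding domain that recognizes a GGAA core. GABPA is the member that works as GA-binding protein (GABP), in which it contacts DNA and a beta subunit from Gabpb1 or Gabpb2 activates transcription, and it is known for controlling genes of mitochondria and basic cell functions. PU.1, encoded by Spi1, is the ETS factor that sets up the myeloid lineage, to which microglia belong. Elk3 and Elk4 are ternary complex factors, which bind beside the serum response factor SRF.

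Gabpa (ENSMUSG00000008976) lies on the plus strand of chr16:84834925-84863779 of GRCm38. In the control siRNA libraries 1 to 3 it measured 51.2, 59.3, and 52.0 CPM, in the Chd8 siRNA libraries 81.7, 101, and 138 CPM, and in the Tsc2 siRNA libraries 51.8, 52.5, and 61.1 CPM. The lowest Chd8 siRNA library was thus above each of the other 6, while the Tsc2 siRNA libraries overlapped the controls. The estimated counts behind these values were between 963 and 3350 per library. The mean was 54.1 CPM ± 4.48 (SD, n = 3) with control siRNA, 107 CPM ± 28.5 (SD, n = 3) with Chd8 siRNA, and 55.1 CPM ± 5.16 (SD, n = 3) with Tsc2 siRNA. Chd8 siRNA was 1.97-fold over control, a log2 fold change of 0.98 (SE 0.18) without the block and 0.95 (SE 0.12) with it. Between libraries of the same number, the ratio was 1.60 for number 1, 1.70 for number 2, and 2.65 for number 3. Chd8 itself was least reduced in library 1, and a relation of these ratios to the Chd8 level was not tested. Number 3 was also where the astrocyte and the fibroblast and pericyte sums were furthest below control, and their part in Gabpa was not tested. In bulk RNA, more RNA per cell and more cells of a type with the gene cannot be told apart.

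In Tsc2 siRNA against control siRNA, which was not used for choosing Gabpa but shares the same controls, the log2 fold change of Gabpa was 0.03 (SE 0.18), and its edgeR adjusted p was 1.00, or 0.979 with the replicate block. The ratios within a number were 1.01, 0.89, and 1.18. Against the Tsc2 siRNA libraries, the same Chd8 siRNA libraries gave a log2 fold change of 0.95 (SE 0.18). That comparison holds the values that chose the gene, so it is a description as well.

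**Figure D1:**
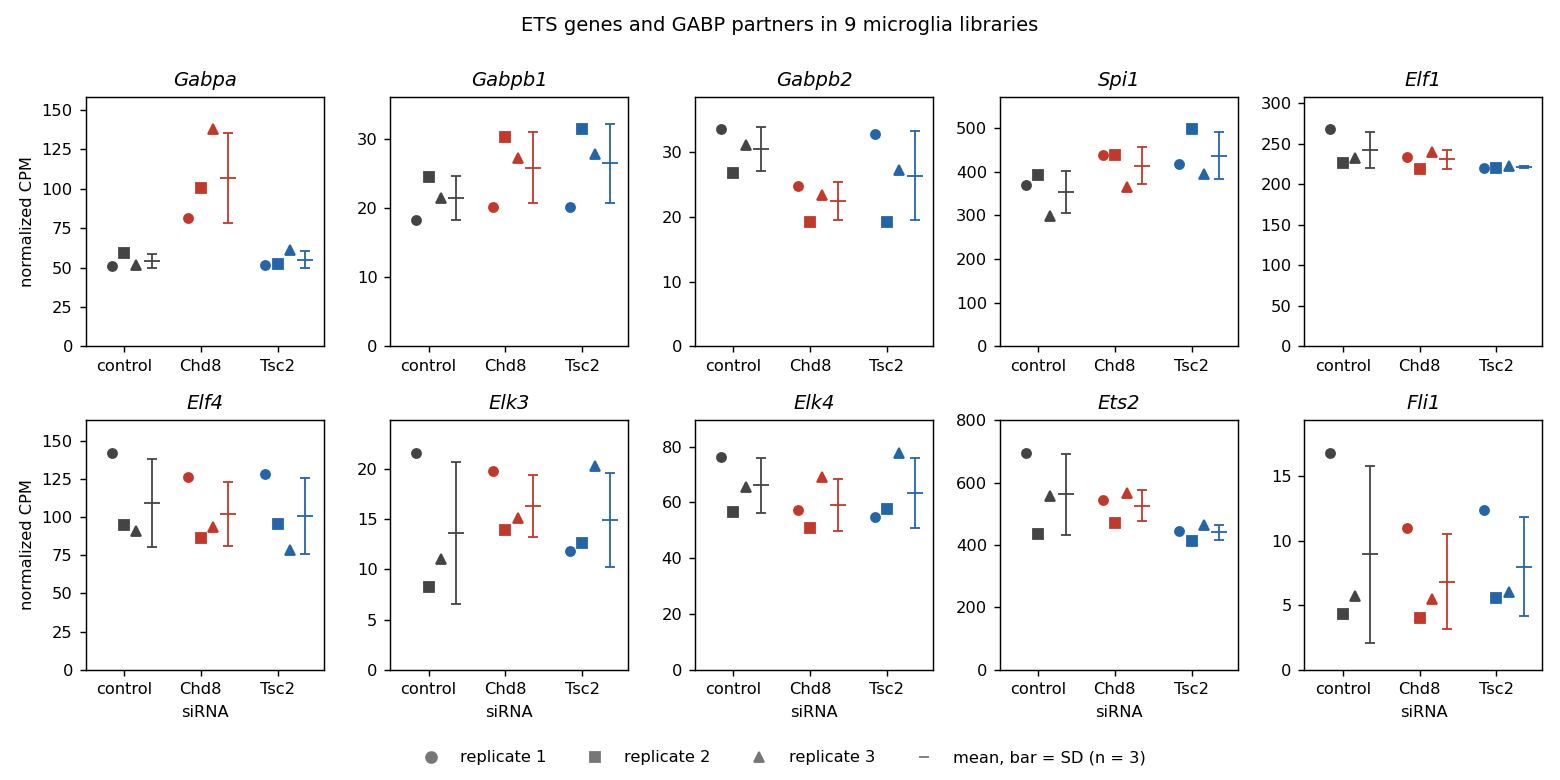
Normalized CPM (vertical axes, from 0, each with its own scale) of the 10 genes in the control, Chd8, and Tsc2 siRNA libraries. Symbols mark replicate numbers, and the bar beside them is the mean with its SD (n = 3). Gabpa is the gene whose 3 Chd8 siRNA libraries, at 81.7 to 138 CPM, stand above all 6 others, and Elf4 and Fli1 are highest in the libraries numbered 1 in each group.

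Gabpa counts came from 2 protein-coding transcripts for 98.7% of the total. Gabpa-201 is 4987 bases long and measured 26.4, 34.4, and 26.7 CPM in the controls, 37.9, 41.6, and 60.9 CPM with Chd8 siRNA, and 28.7, 28.0, and 35.8 CPM with Tsc2 siRNA. Gabpa-202, of 2202 bases, measured 23.4, 24.8, and 24.9 CPM in the controls, 42.6, 57.0, and 75.1 CPM with Chd8 siRNA, and 22.9, 24.2, and 24.4 CPM with Tsc2 siRNA. Both transcripts were above all controls in all Chd8 siRNA libraries. The share of Gabpa-202 among Gabpa counts was between 52.2% and 56.6% with Chd8 siRNA, and between 39.9% and 47.9% in the other 6 libraries, so that these ranges did not meet. The shares come from the authors' assignment of reads to overlapping transcripts, and they use the contrast for which Gabpa was chosen, so no test was made.

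Gabpa starts head to head with Atp5j, which encodes a subunit of the mitochondrial ATP synthase. The annotated start of Atp5j lies 700 bases inside Gabpa on the opposite strand, so the gene models overlap at their starts. Atp5j measured 41.7, 56.7, and 51.2 CPM in the controls, 57.1, 56.4, and 51.3 CPM with Chd8 siRNA, and 58.9, 59.1, and 56.2 CPM with Tsc2 siRNA. The Chd8 siRNA libraries lay within or just above the range of the controls, and the log2 fold change was 0.14 (SE 0.14), with an edgeR adjusted p of 1.00, or 0.623 with the replicate block. The sample descriptions name a stranded kit and the methods of the study another preparation, and the sources used here do not give the strand setting of the quantification, so reads from the shared stretch may be assigned to either gene.

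Short matches to ETS motifs are shown for Gabpa, in the stretch that its model shares with that of Atp5j, and for the 2 other members that had one. RefSeq promoter windows, from 250 bases before to 50 after a start on GRCm38.p6, were searched on both strands for CGGAAG, the core of a GABP site, and for GAGGAAGT, the core of a PU.1 site. Both motifs hold GGAA, but they differ in the base before it, so that no site counts for both. A gene can have several windows, and the 8 members with an entry had 13. CGGAAG was in 16.9% of all 32851 windows and in 4 of these 13, which belong to Gabpa, Gabpb2, and Elk4. GAGGAAGT was in 3.20% of all windows and in 2 of the 13, of Gabpa and Elk4. Capitals mark the motif, with 8 bases on each side on the strand of the gene, and CTTCCG is CGGAAG read from the other strand.
Gabpa, chr16:84835023-84835044: ggtaagtgCTTCCGggtccctc
Gabpa, chr16:84835003-84835026: aacaggagGAGGAAGTggagggta
Gabpb2, chr3:95218127-95218148: ccgaatagCGGAAGcaagattc
Elk4, chr1:132007545-132007566: ccctccccCGGAAGtgacgctc
Elk4, chr1:132008204-132008225: cccttgggCGGAAGgtggcagc
Elk4, chr1:132007420-132007443: gggcctgcGAGGAAGTacgaatgt
These are matches of letters, and none of the libraries measured binding. Of the 3 genes with CGGAAG, Gabpa was higher with Chd8 siRNA than in the controls, Gabpb2 was lower without passing the test, and the groups overlapped for Elk4, as their values show.

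**Figure D2:**
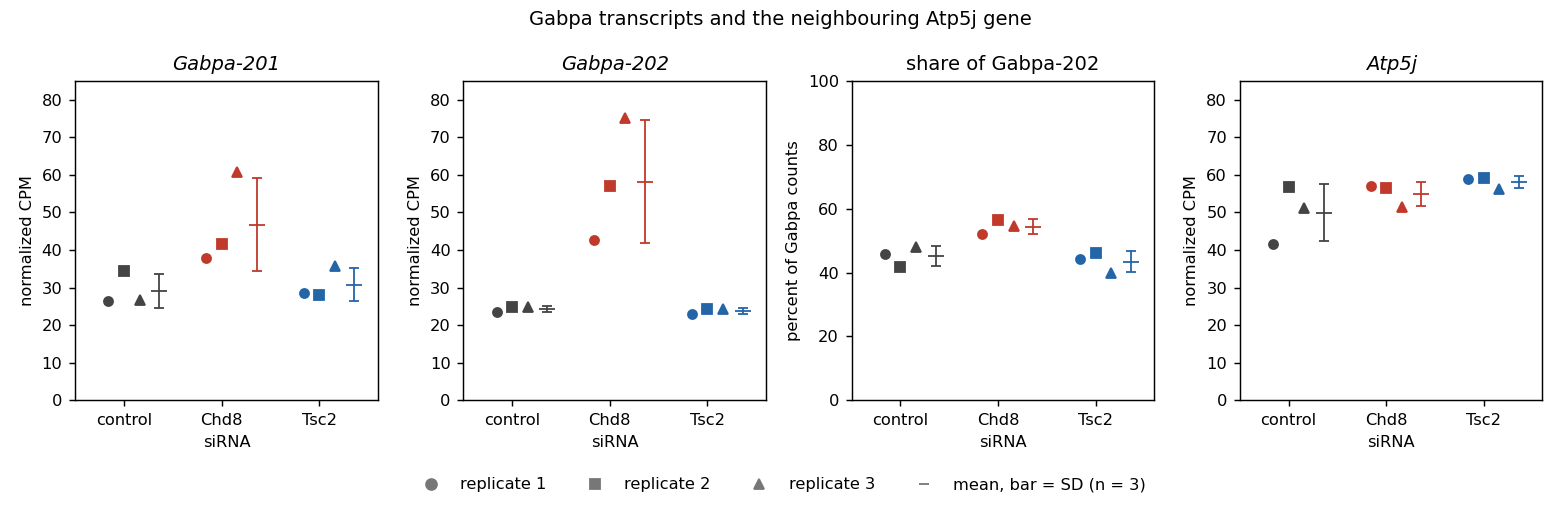
Normalized CPM of the transcripts Gabpa-201 and Gabpa-202, the percent of Gabpa counts in Gabpa-202, and normalized CPM of the neighbouring Atp5j gene, by siRNA group. Symbols mark replicate numbers, bars are the mean and SD (n = 3), and all axes start at 0. The share of Gabpa-202 is 52.2% to 56.6% with Chd8 siRNA against 39.9% to 47.9% elsewhere, while Atp5j stays between 41.7 and 59.1 CPM in all 9 libraries.

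Neither beta subunit gene was called with Chd8 siRNA or Tsc2 siRNA. Gabpb1, the more abundant partner per length, measured 18.3, 24.6, and 21.6 CPM in the controls, 20.2, 30.3, and 27.3 CPM with Chd8 siRNA, and 20.3, 31.5, and 27.9 CPM with Tsc2 siRNA. The groups overlapped, although each knockdown library was above the control of its number, by 1.10- to 1.27-fold for Chd8 siRNA and 1.11- to 1.29-fold for Tsc2 siRNA. The log2 fold changes were 0.27 (SE 0.22) and 0.30 (SE 0.22), and neither passed edgeR's test with the block (adjusted p = 0.372 and 0.375).

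Gabpb2 measured 33.6, 26.8, and 31.2 CPM in the controls, 24.9, 19.2, and 23.4 CPM with Chd8 siRNA, and 32.8, 19.2, and 27.3 CPM with Tsc2 siRNA. All 3 Chd8 siRNA libraries were below all controls, as were those of 4.91% of all genes tested, and the ratios within a number lay between 0.72 and 0.75. The log2 fold change of −0.44 (SE 0.21) did not pass the test (edgeR adjusted p = 1.00, or 0.105 with the replicate block). With Tsc2 siRNA it was −0.21 (SE 0.21), and the groups overlapped. Transcripts annotated as not protein coding, mainly with retained introns, held 34.2% of its counts, the highest share of the 10 genes. Its coding counts jumped between transcripts of similar length. Gabpb2-202 was at or under 3 counts in 6 libraries and held 71.4% of the gene in Chd8 siRNA library 3, whereas Gabpb2-204 held 0% there and 65.7% in control library 3. The gene sum is therefore used here, and no transcript of Gabpb2 is compared.

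Spi1, for PU.1, measured 368, 393, and 299 CPM in the controls, 437, 438, and 365 CPM with Chd8 siRNA, and 417, 497, and 395 CPM with Tsc2 siRNA. The Tsc2 siRNA libraries were all above the controls, as were those of 3.88% of all genes tested, with 1.13-, 1.26-, and 1.32-fold within the numbers. The log2 fold change was 0.30 (SE 0.15), with an edgeR adjusted p of 1.00, or 0.0728 with the replicate block, and its size is under the 1.5-fold threshold. With Chd8 siRNA it was 0.23 (SE 0.15), the groups overlapped, and the adjusted p with the block was 0.152. The transcript Spi1-201 held between 95.4% and 97.4% of the counts in each library. The microglial marker sum ran from 1654 to 2248 CPM in the controls and from 2024 to 2298 CPM with Tsc2 siRNA, so that the groups overlapped in it, and its part in the Spi1 values was not tested.

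Ets2, which acts downstream of Ras and MAP kinase signaling, was the most abundant member. It measured 697, 436, and 556 CPM in the controls, 543, 469.7, and 568 CPM with Chd8 siRNA, and 445, 414, and 463 CPM with Tsc2 siRNA. The Tsc2 siRNA libraries were low and close together, but control library 2 lay among them. The log2 fold change with Tsc2 siRNA was −0.35 (SE 0.17), and edgeR's blocked test gave an adjusted p of 0.137. With Chd8 siRNA it was −0.10 (SE 0.17). All Chd8 siRNA libraries were above all Tsc2 siRNA libraries, as were those of 4.03% of all genes tested, at a log2 fold change of 0.26 (SE 0.17), which did not pass the test with the block (adjusted p = 0.305).

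Elf1 and Elf4 belong to the ELF subfamily, which acts in blood cells. Elf1 measured 268, 226, and 232 CPM in the controls, 233, 218, and 240.0 CPM with Chd8 siRNA, and 220.5, 219.8, and 223 CPM with Tsc2 siRNA. The Tsc2 siRNA libraries were all just below the controls, as were those of 4.25% of all genes tested, and the log2 fold change was −0.13 (SE 0.11), and edgeR's blocked test gave an adjusted p of 0.611. Its neighbour Wbp4, which starts 326 bases away on the opposite strand, measured between 50.4 and 61.5 CPM and was not called.

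Elf4 measured 142, 94.5, and 90.6 CPM in the controls, 126, 86.2, and 93.7 CPM with Chd8 siRNA, and 128, 95.6, and 78.5 CPM with Tsc2 siRNA. Fli1, an ETS factor of megakaryocytes and endothelium, measured 16.9, 4.31, and 5.75 CPM in the controls, 11.0, 4.02, and 5.51 CPM with Chd8 siRNA, and 12.4, 5.57, and 6.03 CPM with Tsc2 siRNA. In both genes the 3 libraries numbered 1 were above the other 6, which was also the case for 9.67% of all genes tested. The endothelial marker sum did not separate in that way, with 166 to 183 CPM in the libraries numbered 1 and 158 to 235 CPM in the others, but it is mostly Flt1. Pecam1, an adhesion molecule of endothelium, separated as Fli1 did, with 8.24 to 10.1 CPM in the libraries numbered 1 and 4.57 to 6.82 CPM in the other 6. Flt1, Kdr, and Cdh5 did not separate. Kdr measured 33.4 to 43.2 CPM in the libraries numbered 1 and 38.6 to 52.2 CPM in the others. Cdh5 measured 3.65 to 4.48 CPM against 1.46 to 4.02 CPM. The part of endothelial cells in Fli1 was not tested. The log2 fold changes of Elf4 were −0.10 (SE 0.24) with Chd8 siRNA and −0.12 (SE 0.24) with Tsc2 siRNA. For Fli1 they were −0.39 (SE 0.56) and −0.17 (SE 0.56), with counts as low as 63 in a library.

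The ternary complex factors overlapped between all groups. Elk4 measured 76.4, 56.5, and 65.6 CPM in the controls, 57.1, 51.0, and 69.2 CPM with Chd8 siRNA, and 54.8, 57.8, and 77.9 CPM with Tsc2 siRNA. Its log2 fold changes were −0.16 (SE 0.18) and −0.06 (SE 0.18). Elk3 measured 21.6, 8.19, and 11.0 CPM in the controls, 19.8, 13.9, and 15.1 CPM with Chd8 siRNA, and 11.8, 12.6, and 20.3 CPM with Tsc2 siRNA. Control library 1 was the highest of the 9, and its log2 fold changes were 0.26 (SE 0.35) and 0.13 (SE 0.35). Transcripts annotated as not coding held 22.5% of the counts of Elk3 and 22.3% of those of Elk4, mainly Elk3-202 and Elk4-207, which are annotated as subject to nonsense-mediated decay. Cdk17, which overlaps the end of Elk3 on the opposite strand, measured between 32.1 and 56.1 CPM, so that reads of Elk3 in that stretch are uncertain.

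Without the block, edgeR called 0 of 16229 genes (0%) in each of the 3 comparisons at an FDR of 0.05 and 1.5-fold, and 0 of the 10 members. At an unadjusted p under 0.05 there were 622 genes with Chd8 siRNA, 420 with Tsc2 siRNA, and 503 between the knockdowns, and DESeq2's Wald test called 9, 5, and 5. With the replicate block, 86 genes (0.53%) were called with Chd8 siRNA, 63 (0.388%) with Tsc2 siRNA, and 36 (0.222%) between the knockdowns. Of the members, 1 was called with Chd8 siRNA, 0 with Tsc2 siRNA, and 1 between the knockdowns. That member was Gabpa in both, the gene whose level chose it, so no p is given for it.

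With Chd8 siRNA, Gabpa was above the controls without overlap, where 4.16% of all genes were, and since its choice fixed this, nothing is read from it. Of the other 9 members, 1, Gabpb2, was below without overlap, against 4.91% of all genes. With Tsc2 siRNA there were 1 above and 1 below, against 3.88% and 4.25%. Between the knockdowns, beside Gabpa, Chd8 siRNA was above Tsc2 siRNA for 1 member, Ets2, and below for 0, against 4.03% and 4.38%. Without the block, the median log2 fold change of the 10 members was −0.08 with Chd8 siRNA and −0.09 with Tsc2 siRNA, where that of all genes was −0.02 in both. Members other than Gabpa stayed between −0.44 and 0.30 in both knockdowns.

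**Figure D3:**
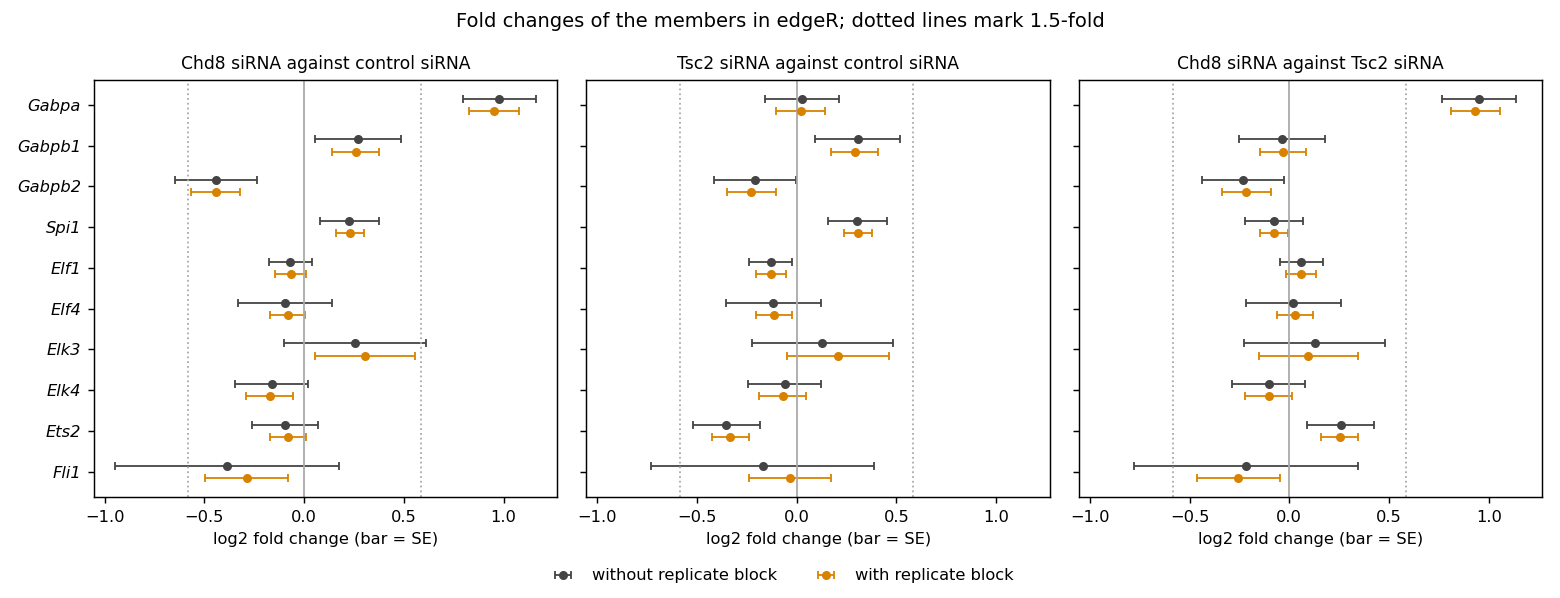
Log2 fold changes (horizontal axes) of the 10 genes in the 3 comparisons, from edgeR without (grey) and with (orange) the replicate block. Bars are standard errors and dotted lines mark 1.5-fold. Gabpa lies at 0.98 in Chd8 siRNA against control siRNA and at 0.03 in Tsc2 siRNA against control siRNA, and the points of the other 9 genes lie inside the dotted lines in all 3 panels.

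The block moved the errors more than the values, and libraries of one number deviated together. Of the spread of log2 CPM over the 9 libraries, the siRNA held 83.3% for Gabpa, against a median of 18.1% over all genes tested, a share that includes the contrast used to choose it. The replicate number held 92.1% of the spread for Fli1, 90.3% for Elf4, and 73.4% for Gabpb1, where the median of all genes was 42.0%. Elk3 had 55.8% of its spread in neither.

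**Figure D4:**
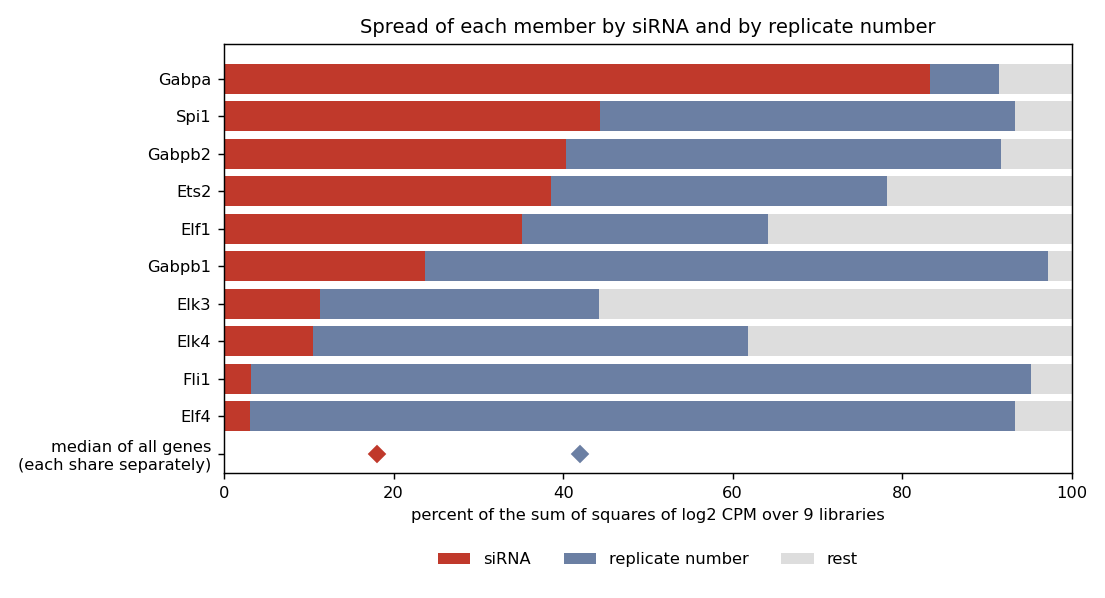
Percent of the sum of squares of log2 CPM over 9 libraries (horizontal axis) that goes with the siRNA group, with the replicate number, and with neither, for each of the 10 genes. Diamonds show the medians of the siRNA and number shares over all genes tested, at 18.1% and 42.0%. Gabpa is mostly siRNA (83.3%), and Fli1 (92.1%) and Elf4 (90.3%) are mostly replicate number.

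Levels between genes were compared per transcript length, as TPM computed from the counts and the annotated lengths. In the control siRNA libraries, Ets2 was at 156 TPM ± 44.3 (SD, n = 3), Spi1 at 96.7 TPM ± 8.76, and Elf1 at 29.4 TPM ± 4.44. Elf4 at 14.3 TPM ± 3.66 and Elk4 at 12.2 TPM ± 2.00 overlapped between libraries. Gabpa followed at 9.0 TPM ± 0.73, and it overlapped Gabpb1 at 6.63 TPM ± 1.36. Elk3, Gabpb2, and Fli1 were at 3.06 TPM ± 2.16, 2.86 TPM ± 0.52, and 2.37 TPM ± 2.00 and did not differ beyond their spread. Ets2 and Spi1 also came close, since the lowest Ets2 library was at 106 TPM and the highest Spi1 library at 105 TPM.

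Of the 18 other ETS genes, 10 passed the filter. Etv3 at 23.9 TPM ± 7.0 and Etv6 at 14.7 TPM ± 0.67 in the controls were of the order of Elf1 and Elf4. Elf3, Fev, and Spdef had 0 counts in all 9 libraries, and a count of 0 allows a level of up to between 0.0903 and 0.177 CPM. Erg, the relative of Fli1, had 4 counts over all libraries.

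**Figure D5:**
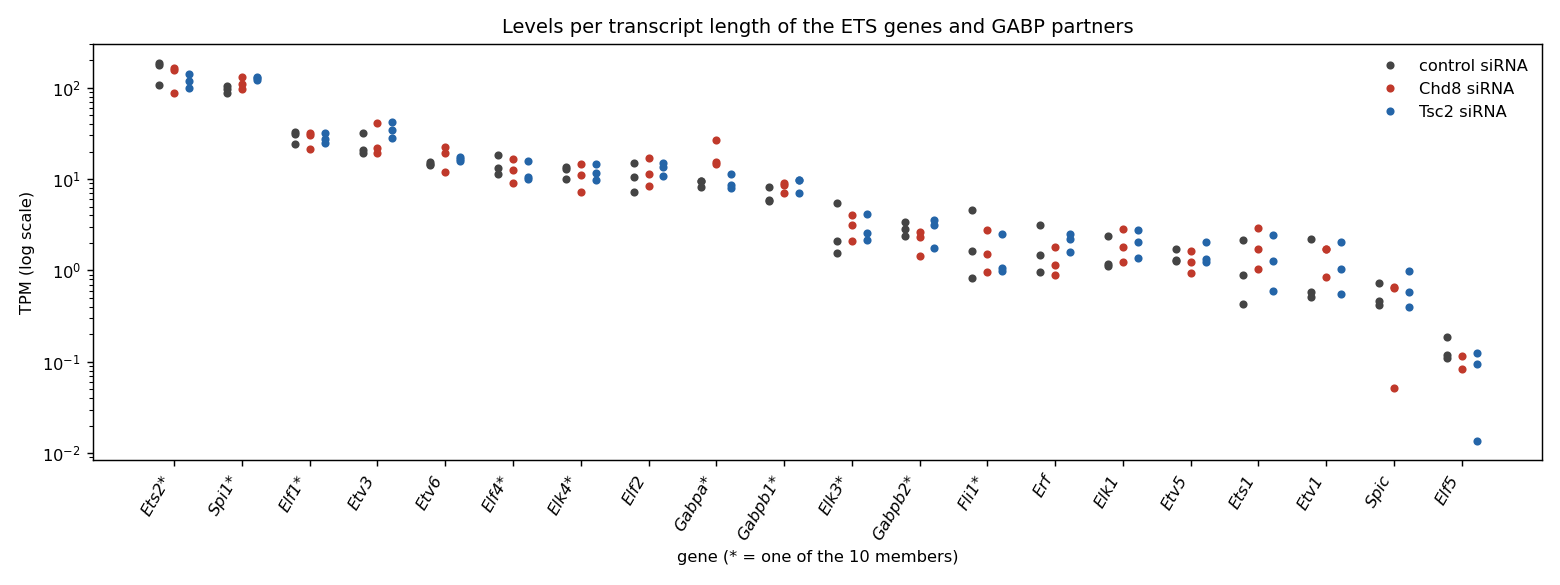
TPM on a log scale (vertical axis) of the 20 ETS genes and GABP partners that passed the filter, with a point for each library coloured by siRNA, ordered by the control mean. Stars mark the 10 genes described here, and points at 0 (in Elf5) are not drawn. Ets2 and Spi1 stand at the top, near or over 100 TPM, and the Chd8 siRNA libraries of Gabpa lie above its other libraries.

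Among the other ETS genes, 0 of 10 were called without the block and 1 with it, which was Ets1, a factor of lymphoid and endothelial cells. Ets1 measured 2.00, 5.73, and 7.60 CPM in the controls, 6.06, 14.1, and 16.8 CPM with Chd8 siRNA, and 3.89, 8.77, and 13.3 CPM with Tsc2 siRNA. The groups overlapped, but within each number Chd8 siRNA was 3.03-, 2.46-, and 2.21-fold over control. With the block Ets1 was higher with Chd8 siRNA by 1.33 (SE 0.19) on the log2 scale, with an edgeR adjusted p of 0.00466, against an adjusted p of 1.00 without the block. It also passed in 6 of 6 blocked fits that left out a library. With Tsc2 siRNA the blocked log2 fold change was 0.78 (SE 0.19), with an adjusted p of 0.0910. In each group Ets1 was lowest in the library numbered 1, where the astrocyte and the fibroblast and pericyte markers were also lowest, and their part in Ets1 was not tested.

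Etv3, an ETS repressor of macrophages, measured 324, 237, and 184 CPM in the controls, 389, 246, and 203 CPM with Chd8 siRNA, and 416, 311, and 298 CPM with Tsc2 siRNA. Its blocked log2 fold change with Tsc2 siRNA was 0.49 (SE 0.09), with an edgeR adjusted p of 0.016 but a size under 1.5-fold, so it was not called. Etv6 was above all controls in both knockdowns, as were 4.16% of all genes tested with Chd8 siRNA and 3.88% with Tsc2 siRNA. It measured 141 to 149 CPM with Chd8 siRNA and 139.6 to 149.7 CPM with Tsc2 siRNA against 122 to 128 CPM. It was not called in either (edgeR adjusted p = 0.244 and 0.317 with the block). Elk1, the ternary complex factor next to Elk3 and Elk4, measured between 7.47 and 18.3 CPM with overlapping groups. The median log2 fold change of the 10 tested genes was 0.14 with Chd8 siRNA and 0.18 with Tsc2 siRNA without the block, where that of all genes was −0.02.

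All 12 listed target genes of GABP were tested, and 0 were called with or without the block in any comparison. With Chd8 siRNA 9 of 12 log2 fold changes were positive, with a median of 0.11 where that of all genes was −0.02. Sdhc, a subunit of succinate dehydrogenase, measured 21.8, 22.4, and 21.8 CPM in the controls, 29.6, 33.5, and 27.8 CPM with Chd8 siRNA, and 22.5, 26.2, and 20.2 CPM with Tsc2 siRNA. Its Chd8 siRNA libraries were above the other 6, where 4.16% of all genes tested were above all controls. The blocked log2 fold change was 0.45 (SE 0.12), with an edgeR adjusted p of 0.0882. Cox7c, of cytochrome c oxidase, had a blocked log2 fold change of 0.48 (SE 0.14) and an adjusted p of 0.121 with overlapping groups. Tfb1m, a methyltransferase for mitochondrial ribosomal RNA, was at 0.21 to 0.72 CPM in the controls and 1.00 to 1.66 CPM with Chd8 siRNA, levels of few counts, and had a blocked adjusted p of 0.430. With Tsc2 siRNA 8 of 12 were positive, with a median of 0.03. Yap1 was at 2.03 to 9.87 CPM in the controls and 1.32 to 3.13 CPM with Tsc2 siRNA, and its blocked adjusted p was 0.450.

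Of the 16 target genes of PU.1, all were tested and 0 were called in any fit. The median log2 fold changes were 0.04 with Chd8 siRNA and 0.01 with Tsc2 siRNA, where that of all genes was −0.02. Aif1, the microglial protein known as Iba1, measured 75.8, 71.4, and 44.8 CPM in the controls and 93.7, 90.7, and 85.5 CPM with Tsc2 siRNA. There it was above all controls, as were 3.88% of all genes tested. The blocked log2 fold change was 0.53 (SE 0.11), with an edgeR adjusted p of 0.0444 and a size under 1.5-fold. Csf2ra, a subunit of the GM-CSF receptor, measured 90.0, 76.8, and 66.3 CPM in the controls and 101, 109, and 89.8 CPM with Chd8 siRNA, and did not pass the blocked test (adjusted p = 0.0965).

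The 10 target genes of SRF and the ternary complex factors also had 0 calls. With each knockdown 8 of 10 log2 fold changes were positive without the block, with a median of 0.17 for Chd8 siRNA and 0.23 for Tsc2 siRNA, where that of all genes was −0.02 in both. Fos measured 32.4, 19.1, and 15.7 CPM in the controls and 35.4, 27.2, and 25.7 CPM with Chd8 siRNA, with overlapping groups. Egr2 was at 1.97 to 2.83 CPM in the controls and 3.69 to 5.26 CPM with Tsc2 siRNA. It was above all controls, as were 3.88% of all genes tested, and its blocked edgeR adjusted p was 0.359. Fosb, which is named after its values were seen, was below all controls with Tsc2 siRNA, as were 4.25% of all genes tested. It was at 0 to 0.38 CPM against 0.47 to 0.86 CPM, levels of few counts, and its blocked edgeR adjusted p was 0.477.

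Among 7 genes for proteins that bind DNA with ETS factors, 0 were called without the block and 1 with it. Cebpa, a partner of PU.1 in myeloid cells, measured 5.35, 6.46, and 7.98 CPM in the controls, 2.95, 2.74, and 2.96 CPM with Chd8 siRNA, and 3.76, 4.26, and 6.73 CPM with Tsc2 siRNA. All Chd8 siRNA libraries were below the other 6, where 4.91% of all genes tested were below all controls. The log2 fold change with Chd8 siRNA was −1.16 (SE 0.25) with the block, with an edgeR adjusted p of 0.0405, against 1.00 without it. The call was lost in 6 of 6 blocked fits that left out a library, where the adjusted p ran from 0.0600 to 0.243 and the log2 fold change from −1.35 to −0.98. Irf4 had few counts, and Runx1 had overlapping groups and a blocked adjusted p of 0.0935 with Chd8 siRNA.

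The 5 genes whose log2 CPM over the 9 libraries was most like that of Gabpa were Hpgd (Pearson's r 0.98), Mier3 (0.96), Nae1 (0.95), Gad2 (0.94), and Tox4 (0.93). These values share their scaling across libraries, and the likeness rests mainly on the 3 Chd8 siRNA libraries, which were above the other 6 in all 5 genes. Hpgd, an enzyme that breaks down prostaglandins, measured 31.4, 32.7, and 29.1 CPM in the controls, 46.2, 51.7, and 59.0 CPM with Chd8 siRNA, and 29.7, 30.7, and 31.6 CPM with Tsc2 siRNA. Mier3 ran from 79.8 to 84.3 CPM in the 6 other libraries and from 95.8 to 104 CPM with Chd8 siRNA. Gad2 was under 1 CPM in each library. The list depends on the measure, since by Spearman's rank correlation the 5 genes ranked 39.5, 57.5, 1084.5, 27.5, and 106.5, and with the mean of each replicate number removed they ranked 3, 30, 26, 20, and 69.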

How the data were processed

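RNA-seq of 9 libraries of primary microglia was used, 3 per siRNA, grouped by the siRNA and numbered by the replicate in the sample descriptions. The authors quantified reads with Salmon 0.14.1 on mm10 and tximport and deposited estimated counts per transcript, without normalization or pooling. The release of their annotation is not given in the sources used here. Estimated counts were rounded to whole numbers, which changed between 26.8% and 32.1% of the values of a library, and summed to genes with GENCODE mouse release 21. Of 140948 transcripts 1096 were unmatched, with 0.27% of the counts, and were left out of library sizes and tests. A floor of 3 counts was 0.0903 to 0.177 CPM and covers counting error only.

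edgeR 4.0.16 in R 4.3.3 was used with filterByExpr, TMM, and the quasi-likelihood test, with a single factor for the siRNA fitted to all 9 libraries together. P-values were adjusted over all 16229 genes by the Benjamini-Hochberg method, and genes were called at an FDR of 0.05 and 1.5-fold. The replicate number was added as a block in a second fit, because deviations from the group means correlated in each of the 9 pairs with the same number (r from 0.244 to 0.522 across genes). The mean of −0.18 in the 18 pairs with other numbers is no separate evidence, since the deviations within a group cancel out. The numbers come from the titles. Whether they mark a shared culture is not stated, and p-values may measure technical spread in part. Other alternatives were DESeq2 1.42.0, its size factors, no filter, 6 libraries only, coding transcripts only, and leaving out each library. The fits were tested on simulated data. Tables were made with pandas 2.3.3 and plots with matplotlib 3.10.9. The spread was split on log2 CPM with a pseudocount of 0.5, and likeness used a prior count of 2.

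The members and gene lists were chosen with earlier results of these data known. From each list, the 4 genes with the lowest unadjusted p in a knockdown at most could be named, with any gene called in a fit. Transcripts with 5% or more of the counts of a gene, neighbours that start within 1 kb or overlap on the opposite strand, and the 5 genes most like Gabpa could also be named.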

Additional observations from a re-analysis of the deposited data

How the results depend on the processing

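The calls of members with Chd8 siRNA are of Gabpa, which was chosen for its level in these same libraries, so they are a description of how the fits treat it and no support for its difference. In Chd8 siRNA against control siRNA the count was 1 with DESeq2's Wald test, 1 with the replicate block, and 0 to 1 over the fits that left out a library. Between the knockdowns it was likewise 1, 1, and 0 to 1, and in blocked fits it fell to 0 without Chd8 siRNA replicate 3 and without Tsc2 siRNA replicate 2. No call was made for a member with Tsc2 siRNA against control under the alternatives run. The block changed no other call of a member. Over all genes, 0 were called without the block in each comparison, whereas with DESeq2's Wald test 9, 5, and 5 and with the replicate block 86, 63, and 36 were called for Chd8 siRNA, Tsc2 siRNA, and between the knockdowns. Blocked fits that left out a library gave counts that ran from 20 (without control siRNA replicate 3) to 81, from 7 (without control siRNA replicate 3) to 131 (without Tsc2 siRNA replicate 1), and from 4 (without Chd8 siRNA replicate 3) to 129 (without Tsc2 siRNA replicate 1). The cause of these differences between fits was not tested.

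Of 30 log2 fold changes of members, 0 reversed under the 6 alternatives that left out no library of the groups compared and 17 reversed with a library left out. With Chd8 siRNA against control siRNA these ran from −0.11 to 0.010 for Elf1, −0.28 to 0.14 for Elf4, −5.5e-05 to 0.77 for Elk3, −0.31 to 0.0068 for Elk4, −0.25 to 0.088 for Ets2, and −0.92 to 0.45 for Fli1. With Tsc2 siRNA they ran from −0.14 to 0.12 for Gabpa, −0.33 to 0.12 for Elf4, −0.16 to 0.64 for Elk3, −0.23 to 0.10 for Elk4, and −0.63 to 0.67 for Fli1. Between the knockdowns they ran from −0.20 to 0.11 for Gabpb1, −0.15 to 0.025 for Spi1, −0.16 to 0.23 for Elf4, −0.28 to 0.45 for Elk3, −0.24 to 0.070 for Elk4, and −0.75 to 0.25 for Fli1. The other 13, among them Gabpa with Chd8 siRNA, Gabpb2, and Spi1 and Ets2 with Tsc2 siRNA, kept their sign in the fits run. The blocked adjusted p of Spi1 with Tsc2 siRNA ran from 0.0155 (without Tsc2 siRNA replicate 1) to 0.489 with a library left out, at sizes under 1.5-fold. By Spearman's rank correlation the 5 genes listed as most like Gabpa ranked between 27.5 and 1084.5, so that none of them was among the first 5. The depth limits Fli1 most, with as few as 63 counts in a library. The fits of Ets1 and Cebpa with libraries left out were chosen after seeing the data.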
